A study of Rattus norvegicus with 6 samples.

Results

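The receptors for serotonin, dopamine, noradrenaline and acetylcholine were examined in cultured slices of rat hippocampus, before and after fast inhibition was blocked. Probe sets were chosen by gene symbol alone, as those that the array annotation pairs with a single gene of the Htr, Drd, Adra, Adrb, Chrm or Chrn families. This gave 64 probe sets of 48 genes among the 31099 probe sets of the array. They comprise 22 probe sets of 14 serotonin receptor genes, 8 of 5 dopamine receptor genes, 11 of 8 adrenergic receptor genes, 6 of 5 muscarinic receptor genes and 17 of 16 nicotinic subunit genes. The hippocampi came from Wistar rats at postnatal day 4 according to the sample labels, and were grown as organotypic cultures by the roller tube method. In each of 3 biological replicas the cultures of 2 littermates were divided, and one part was left untreated (control) while the other received 20 µM gabazine for 90 min. Gabazine is an antagonist of the GABA-A receptor, the chloride channel of most fast inhibition, and its block releases strong synchronous activity. Each of the 6 samples is therefore a pool of cultures, hybridized to an Affymetrix RAT2302 array, and the arrays with the same replica number form a pair.

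Monoamines and acetylcholine reach the hippocampus along axons of brainstem, midbrain and septal neurons, which are cut when a slice is taken into culture, while the receptors belong to the cells of the hippocampus itself. Most of these receptors signal through G proteins. Receptors coupled to Gq activate phospholipase C, those coupled to Gs raise cyclic AMP, and those coupled to Gi lower it and open potassium channels. The Htr3 subunits and the nicotinic subunits instead form ion channels that open upon binding of serotonin or acetylcholine. In the hippocampus these receptors are known for setting the excitability of pyramidal cells and interneurons and for gating synaptic plasticity.

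The values are log2 intensities that the authors made with Robust Multi-array Average (RMA), which summarizes the probes of a probe set into 1 value per array. The arrays of pair 2 had medians of 7.90 and 7.89 and those of pairs 1 and 3 had medians from 8.63 to 8.71, so levels were also expressed relative to the median of their own array. Intensities of different probe sets are not amounts of RNA that can be set against each other, and no measure of background was given. In a sample of whole tissue, fewer cells of a type and less RNA per cell cannot be told apart. Markers of cell types were read on the brightest probe set of each gene. Of those measured, 7 of 9 of excitatory neurons and 9 of 10 of astrocytes lay above the array median on all 3 untreated arrays. So did 8 of 9 of interneurons, 8 of 10 of oligodendrocytes, 10 of 11 of microglia and 8 of 10 of meningeal cells or fibroblasts. For choroid plexus, vascular cells and skeletal muscle 2 of 10, 2 of 11 and 1 of 10 did. Of all probe sets 45.3% did. Slc17a7, the vesicular glutamate transporter of pyramidal cells, was at 12.85, 11.04 and 12.17 and Gfap, the astrocyte filament protein, at 14.92, 14.75 and 15.10. For 16.1%, 24.1% and 25.7% of all probe sets the control and gabazine values of pairs 1, 2 and 3 were identical, and a ratio of 0.00 in a pair is such a tie. Whether RMA was run on all 6 arrays together or on each pair by itself was not determined, so that distances between replicas may hold differences of processing and a tie is no measurement of an unchanged level.

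Most of the receptor probe sets were dim in untreated cultures. Of the 64, 58 lay below the array median on all 3 control arrays and 4 lay above it on all 3, against 45.4% and 45.3% of all probe sets. Those 4 measure Htr2c, Htr5b, Adra2a and Chrm3. Over the 6 arrays, 55 of the 64 had a mean among the 40% dimmest of the array. Htr2c, the Gq-coupled serotonin receptor known from choroid plexus and from neurons, stood 2.51, 2.57 and 2.33 above the median of controls 1, 2 and 3 on its bright probe set. Htr5b, a Gi-coupled serotonin receptor present in rodents, stood 1.77, 0.81 and 2.23 above it, and Adra2a, the Gi-coupled receptor through which noradrenaline limits transmitter release, stood 1.91, 1.72 and 1.03 above it. Chrm3, a Gq-coupled muscarinic receptor, stood 0.30, 0.48 and 0.33 above it on the brighter of its probe sets.

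On most probe sets the untreated replicas differed from each other by more than gabazine differed from control. This held for the receptors about as often as for the array. Ties within pairs and differences of processing between replicas can both add to it. The median distance between the highest and the lowest control, on the centred scale, was 0.51 for the receptors and 0.56 for all probe sets. After each array was set to its own median, the distance between the highest and the lowest control exceeded the largest ratio of a pair, taken without its sign, for 50 of the 64 probe sets (78.1%), against 76.1% of all probe sets. Adra1d, a Gq-coupled adrenergic receptor, had the widest distance of the 64. Its control values were 9.69, 5.96 and 7.08 in replicas 1, 2 and 3, and its gabazine values were 9.49, 6.02 and 6.99. Both arrays of replica 1 thus stood far above the others, and the control distance of 2.99 on the centred scale was the only one among the 64 above 2, which 2.11% of all probe sets passed. Htr1d, a Gi-coupled serotonin receptor, had 5.72, 4.82 and 7.21 in the controls and 5.44, 4.82 and 7.21 after gabazine, with replica 3 the highest in both. Chrnb1, the beta subunit of the muscle-type nicotinic receptor, was lowest in replica 1 on its brighter probe set, at 5.98, 6.85 and 7.20 in the controls.

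**Figure D1:**
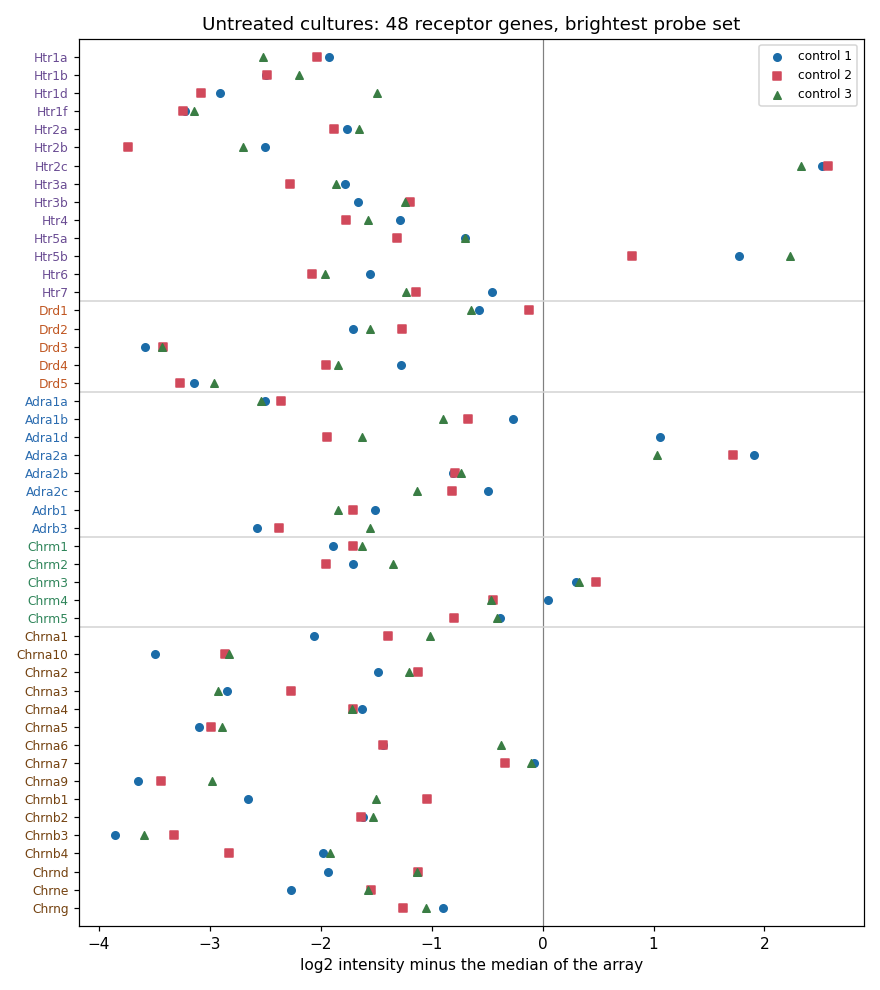
Log2 intensity on the 3 control arrays minus the median of the same array, for the brightest probe set of each of the 48 receptor genes, grouped as serotonin, dopamine, adrenergic, muscarinic and nicotinic from top to bottom. Htr2c, Htr5b, Adra2a and Chrm3 lie right of 0 on all 3 arrays, and Adra1d is split, with control 1 at 1.05 and controls 2 and 3 at -1.94 and -1.62.

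No receptor probe set passed the test after gabazine, and most had a mean ratio near 0, to which ties contributed. For each pair the control value was subtracted from the gabazine value to give a log2 ratio. The mean of the 3 ratios was tested with limma, in which the pairs entered as blocks, and p-values were adjusted by the Benjamini-Hochberg method across the 31099 probe sets. At an adjusted p under 0.05 limma called 0 of the 64 higher and 0 lower, as it called 0.0% of all probe sets, and the smallest adjusted p among the 64 was 0.747. Without adjustment, 1 was higher and 1 lower with a p under 0.05, which is 1.56% each, against 1.84% and 2.68% of all probe sets. The methods use a joint distribution of the 3 ratios. A simple share made here in its place, of all probe sets with ratios at least as extreme in every pair and without the bounds of the original estimator, was 0.005 or less for 1 in the upper tail and 2 in the lower tail, against 5.42% and 7.28% of all. The lower tail included Htr5b, whose ratio in pair 2 was positive. The mean ratio lay within 0.1 of 0 for 44 of the 64 (68.8%), against 54.2% of all, while 50 of the 64 were tied in at least 1 pair. It exceeded 0.5 for 0 and was below -0.5 for 1, that of Htr2c, against 2.31% and 0.836% of all. The median over the 64 was 0.03, with 0.00 in each pair, and the median over all probe sets was 0.00. The SD of the 64 ratios was 0.39, 0.19 and 0.12 in pairs 1, 2 and 3, where all probe sets had 0.48, 0.25 and 0.23.

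Some receptor probe sets differed in the same direction in every pair. Higher in all 3 pairs were 3 of the 64 (4.69%, against 6.92% of all probe sets), namely both probe sets of Chrm3 and that of Adra1b. Lower in all 3 pairs were 2 of the 64 (3.12%, against 9.49% of all), the bright probe sets of Htr2c and Adra2a. By coupling, the 14 probe sets of Gq-coupled receptors held 3 of those that were higher and 1 that was lower. The 19 of Gi-coupled receptors held 1 that was lower, and the 11 of Gs-coupled receptors and the 20 of ligand-gated channels held 0. A probe set tied in any pair could enter neither count, and 50 of the 64 were tied in at least 1 pair. These counts therefore do not compare the couplings. With each array centred on its median, 14 probe sets were higher and 2 lower in all 3 pairs (14.9% and 10.2% of all probe sets), since a tie then takes the small difference between the medians of its arrays. Cyclic loess gave 15 and 2 (17.0% and 12.1% of all), and quantile normalization gave 5 and 5 (10.8% and 16.8% of all).

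**Figure D2:**
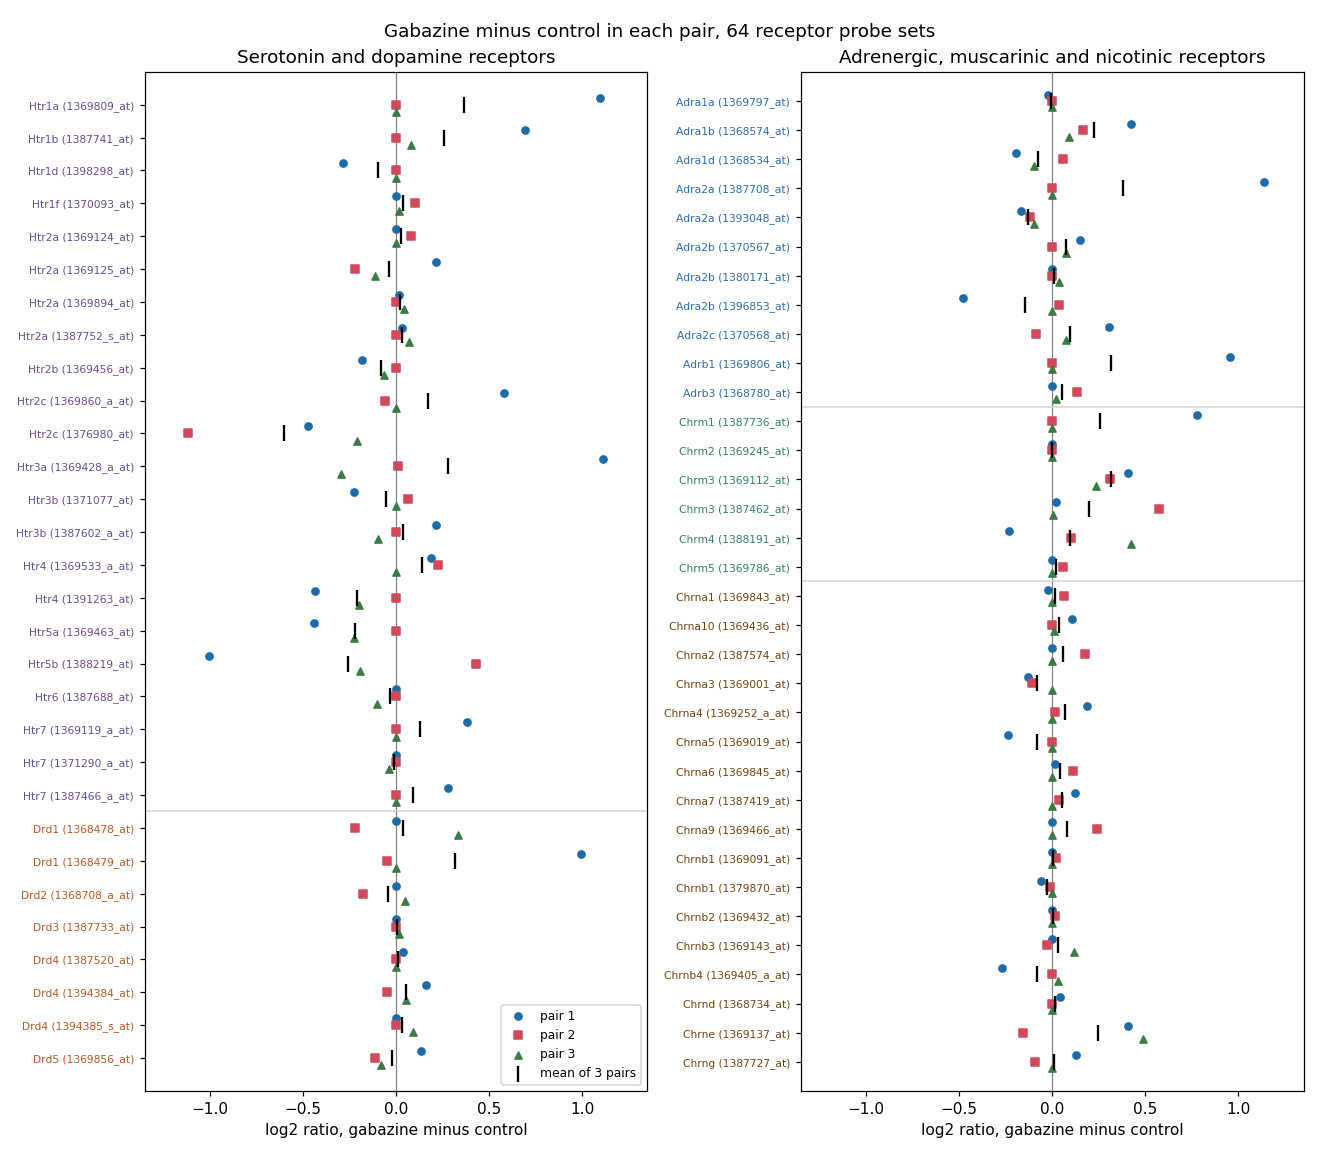
Log2 ratio of gabazine over control in pairs 1, 2 and 3 for all 64 receptor probe sets, with a bar at the mean of the 3 pairs and the probe set in brackets. Chrm3 and Adra1b lie right of 0 and the bright probe sets of Htr2c and Adra2a left of 0 in all pairs, while several serotonin, adrenergic and dopamine receptors have a single point far to the right, that of pair 1.

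Among the muscarinic receptors, which bind acetylcholine and signal through G proteins, Chrm3 was higher in every pair on both of its probe sets. Its dimmer probe set (1369112_at) read 6.24, 5.80 and 6.74 in controls 1, 2 and 3 and 6.64, 6.12 and 6.97 after gabazine. Every treated culture was above its own control, while the groups overlapped because the replicas lay apart. The ratios were 0.41, 0.31 and 0.23, with a mean of 0.32 (standard error 0.05, n = 3 pairs), an unadjusted limma p of 0.00855 and an adjusted p of 0.747. Under the 3 other scalings of the arrays its ratios stayed positive in every pair. The brighter probe set (1387462_at) read 8.93, 8.38 and 9.03 in the controls and 8.95, 8.95 and 9.04 after gabazine. Nearly all of its difference came from pair 2, with ratios of 0.02, 0.57 and 0.01 and a mean of 0.20 (standard error 0.16) that was 0.01 without pair 2, and in pair 1 the sign turned to -0.06 with the arrays centred on their medians and to -0.02 after quantile normalization.

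The other muscarinic receptors showed no such order. Chrm1, the Gq-coupled receptor abundant on pyramidal cells, read 6.74, 6.19 and 7.08 in the controls and 7.52, 6.19 and 7.08 after gabazine, so that only pair 1 differed, by 0.78. Chrm2, a Gi-coupled autoreceptor, held identical values in all 3 pairs, which was the case for 1 of the 64 probe sets and 2.71% of all. Chrm4, which is also coupled to Gi, had ratios of -0.23, 0.10 and 0.42 in pairs 1, 2 and 3, and Chrm5, a Gq-coupled receptor known from dopamine neurons, had 0.00, 0.06 and 0.00.

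The sequence around the annotated start of Chrm3 is shown because this was the gene whose probe sets were both higher in every pair. It was taken from the RefSeq annotation of rat build GRCr8, in which 38 of the 48 receptor genes had an entry of 250 bases before and 50 bases after the start. The window was searched on both strands for the full cyclic AMP response element TGACGTCA, its core TGACG (which lies within the full site), the AP-1 site TGANTCA, the Egr site GCGNGGGCG and the CArG box that binds SRF. Capitals mark the matches, an Egr site that begins 79 bases and a core site that begins 6 bases before the start.
Chrm3, chr17:64696677-64696976, plus strand, 5′ to 3′: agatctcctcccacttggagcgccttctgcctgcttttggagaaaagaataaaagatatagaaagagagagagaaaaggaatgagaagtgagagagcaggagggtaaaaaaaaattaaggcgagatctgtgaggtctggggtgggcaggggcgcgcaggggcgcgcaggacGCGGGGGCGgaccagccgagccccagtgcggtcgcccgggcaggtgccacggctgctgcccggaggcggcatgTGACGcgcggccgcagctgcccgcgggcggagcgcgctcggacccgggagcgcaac
The Egr site was found in 2 of the 38 receptor windows (5.26%), those of Chrm3 and Htr7, and in 4.98% of the 33469 windows of all genes. The core site was found in 8 of the 38 (21.1%) and in 21.2% of all. The full element, the AP-1 site and the CArG box were found in 0 of the 38, and in 1.83%, 7.33% and 1.64% of all. These shares say only which letters the windows hold. The windows of Adra1b and Adra2a, with a GC content of 72.0% and 68.0% against 64.0% for Chrm3, held none of the sites.

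Among the serotonin receptors, Htr2c had the largest mean difference of all 64 probe sets, and it was lower after gabazine. Its rank rested on pair 2, without which its mean was -0.34. Larger in size were then, among others, Htr5b (-0.60), the dimmer Adra2a probe set (0.57) and Htr1a (0.55). So were the dimmer Drd1 probe set (0.50), Adrb1 (0.48) and Htr3a (0.41). The bright probe set of Htr2c (1376980_at) read 11.15, 10.47 and 11.04 in controls 1, 2 and 3 and 10.67, 9.35 and 10.83 after gabazine. Each treated culture was below its own control, and with every array set to its median the 3 gabazine values (1.96, 1.46 and 2.15) all lay below the 3 control values. That separation was seen for 1 of the 64 probe sets (1.56%) in this direction, against 0.926% of all, and for 0 in the other direction, against 0.794%. The ratios were -0.47, -1.12 and -0.21, with a mean of -0.60 (standard error 0.23, n = 3 pairs), an unadjusted limma p of 0.0783 and an adjusted p of 0.747. Among all 31099 probe sets, no other had ratios as low as these in all 3 pairs. That does not make it the lowest of the array, because a probe set can be lower in 1 pair and higher in another. Means over the array went down to -1.24, and 0.836% of all probe sets had a mean below -0.5. All ratios stayed negative under the 3 other scalings.

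The other probe set of Htr2c gave a different picture. The dimmer probe set (1369860_a_at) read 7.34, 6.31 and 7.35 in the controls and 7.92, 6.25 and 7.35 after gabazine. It was higher by 0.58 in pair 1, where the bright probe set was lower by -0.47, and near its control in pairs 2 and 3. The annotation names a different GenBank record for each of the 2 probe sets, and which transcripts of Htr2c each of them reads was not determined here. The bright probe set had a control spread of 0.13 (SD, n = 3) on the centred scale, and the control range of 0.24 on that scale exceeded the size of its ratio in pair 3.

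**Figure D3:**
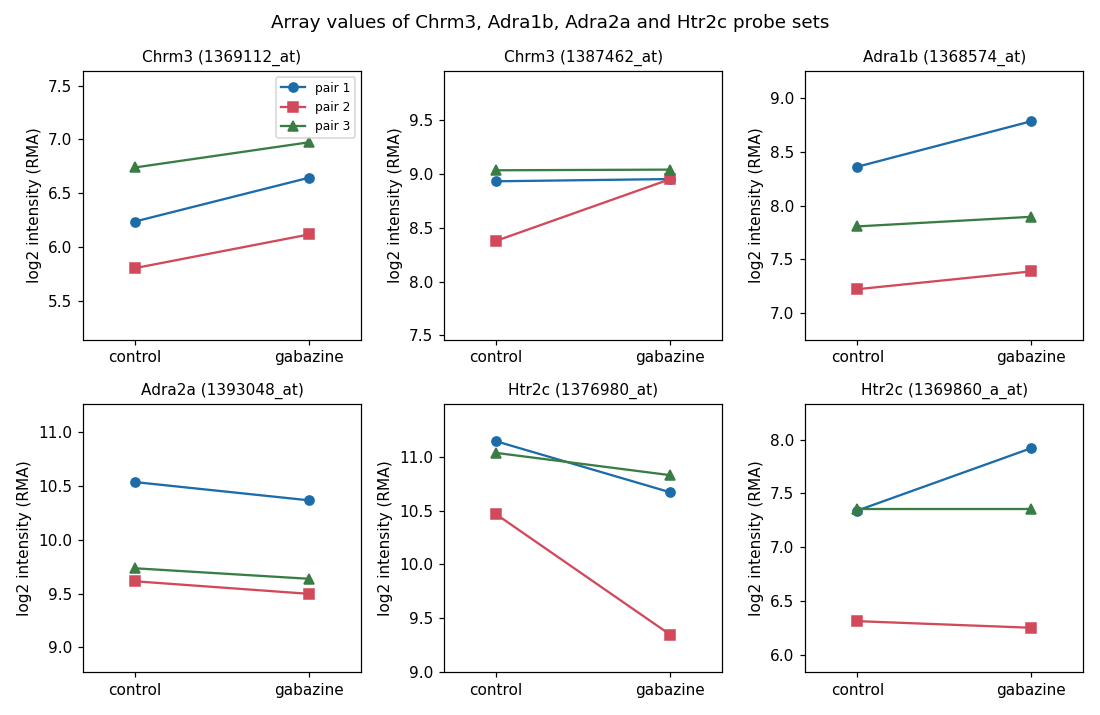
Log2 intensities on the control and gabazine arrays of each pair, joined by a line, for the probe sets of Chrm3, Adra1b and Htr2c and the bright probe set of Adra2a, with axes of equal length. All lines climb for Chrm3 (1369112_at) and Adra1b and descend for Adra2a and Htr2c (1376980_at), while Htr2c (1369860_a_at) climbs in pair 1 alone.

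The RefSeq window around the start of Htr2c is given in the same way, for the gene with the largest difference. It held none of the 5 sites searched, so that no letter is in capitals, and its GC content was 53.7%, against a median of 60.7% over the 38 receptor windows and 51.7% over all.
Htr2c, chrX:115452940-115453239, plus strand, 5′ to 3′: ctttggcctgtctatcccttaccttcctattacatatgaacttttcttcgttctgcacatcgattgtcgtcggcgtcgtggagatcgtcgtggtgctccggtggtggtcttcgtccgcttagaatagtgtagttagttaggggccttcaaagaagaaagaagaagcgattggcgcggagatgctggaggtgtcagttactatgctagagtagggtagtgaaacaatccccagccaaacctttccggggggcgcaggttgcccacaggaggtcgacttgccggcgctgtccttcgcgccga

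Since Htr2c is a known product of the choroid plexus, the markers of that epithelium were read beside it. Of 12 markers 10 were measured, and 4 of them (Ttr, Folr1, Aqp1 and Sostdc1) lay above their control in all 3 pairs and 0 below it, where the brightest probe sets of all genes had 7.79% and 10.8%. Ttr, the thyroid hormone carrier secreted by the choroid plexus, read 8.44, 10.79 and 8.36 in the controls and 13.03, 10.93 and 8.43 after gabazine, so that the treated culture of replica 1 stood far above the rest. Aqp1, its water channel, had ratios of 1.56, 0.02 and 0.08. The summed intensity of the 10 markers, on the linear scale, ran from 4810 to 5691 in the controls and was 14455, 5784 and 4870 after gabazine. Kl was the dimmest in every control, at 4.69 to 5.95. RMA values do not reach 0, so that detection of a marker cannot be read from them. The bright probe set of Htr2c was lowest against its control in pair 2, where Ttr differed by 0.14, and their relation was not tested.

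**Figure D4:**
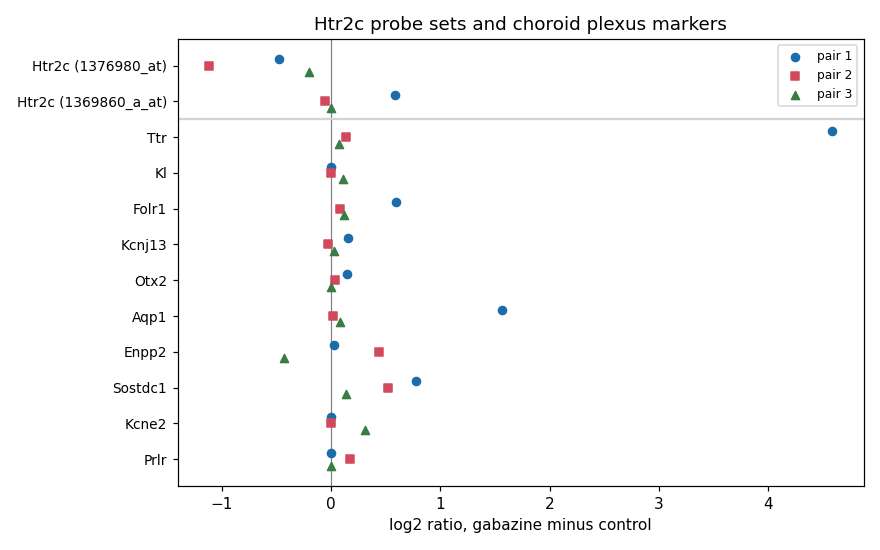
Log2 ratios of gabazine over control in pairs 1, 2 and 3 for both probe sets of Htr2c, above the line, and for the 10 measured markers of choroid plexus, below it. Ttr reaches 4.59 and Aqp1 1.56 in pair 1, whereas the bright Htr2c probe set is at -0.47, -1.12 and -0.21.

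Htr5b and Htr5a, Gi-coupled receptors of the same family, both had negative means. Htr5b read 10.40, 8.70 and 10.93 in the controls and 9.39, 9.13 and 10.74 after gabazine. It was lower in pairs 1 and 3, by -1.01 and -0.19, and higher in pair 2, by 0.43, so that its mean of -0.26 (standard error 0.34) had no common direction and became 0.12 without pair 1. Htr5a read 7.93, 6.58 and 8.01 in the controls and 7.49, 6.58 and 7.78 after gabazine, with ratios of -0.44, 0.00 and -0.22 and a mean of -0.22 (standard error 0.11) that was -0.11 without pair 1.

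Of the Gs-coupled serotonin receptors, which raise cyclic AMP, Htr4 was read in opposite directions by its probe sets. One (1391263_at) was at 7.54, 5.63 and 7.03 in the controls and 7.11, 5.63 and 6.83 after gabazine, and the other (1369533_a_at) was at 7.35, 6.12 and 7.13 in the controls and 7.53, 6.35 and 7.13 after gabazine. Their means were -0.21 (standard error 0.11) and 0.14 (standard error 0.06), and the former was -0.10 without pair 1. Htr6 had ratios of 0.00, 0.00 and -0.10. The brightest of 3 probe sets of Htr7 differed by 0.38 in pair 1 and was tied in pairs 2 and 3.

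The remaining serotonin receptors comprised some that differed in pair 1 and others that differed little in any pair. Htr1a, the Gi-coupled receptor dense on hippocampal pyramidal cells, read 6.70, 5.86 and 6.19 in the controls and 7.80, 5.86 and 6.19 after gabazine. Htr3a, the subunit that every serotonin-gated channel needs and a marker of a class of interneurons, read 6.85, 5.62 and 6.84 in the controls and 7.96, 5.63 and 6.55 after gabazine, so that pairs 1 and 3 disagreed. Htr1b, a presynaptic Gi-coupled receptor, was higher by 0.69 in pair 1 and by 0.00 and 0.08 in the others. The 4 probe sets of Htr2a, the receptor of serotonergic hallucinogens, had means from -0.04 to 0.03, and Htr1f, Htr2b and Htr3b had no ratio beyond 0.23 in size in any pair.

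Among the adrenergic receptors, which bind noradrenaline and adrenaline, Adra2a carried the smallest unadjusted p of its class. Its bright probe set (1393048_at) read 10.54, 9.61 and 9.74 in the controls and 10.37, 9.50 and 9.64 after gabazine. The treated cultures were below their controls by similar amounts, with ratios of -0.17, -0.12 and -0.10 and a mean of -0.13 (standard error 0.03, n = 3 pairs), an unadjusted limma p of 0.0331 and an adjusted p of 0.747. The difference was thus small, and it kept its sign in every pair under the 3 other scalings. How even it was depended on the scaling. With arrays centred on their medians the ratios were -0.25, -0.11 and -0.07 in pairs 1, 2 and 3. The quantile scaling kept them closer together, at -0.11, -0.10 and -0.09, as did loess, at -0.07, -0.09 and -0.10. The dimmer probe set (1387708_at) went the other way in pair 1, with 6.36, 6.05 and 6.59 in the controls and 7.50, 6.05 and 6.59 after gabazine.

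Adra1b, a Gq-coupled receptor, was higher in every pair. It read 8.36, 7.22 and 7.81 in the controls and 8.79, 7.39 and 7.90 after gabazine, with ratios of 0.42, 0.17 and 0.09, a mean of 0.23 (standard error 0.09), an unadjusted limma p of 0.0850 and an adjusted p of 0.747. Without pair 1 the mean was 0.13. Its relatives differed less, Adra1d with a mean of -0.08 and Adra1a with -0.01. Of the Gi-coupled Adra2b, 1 of 3 probe sets (1396853_at) stood apart, at 6.87, 5.42 and 6.84 in the controls and 6.39, 5.46 and 6.84 after gabazine, with a mean of -0.15 that became 0.02 without pair 1. The brightest read 7.82, 7.11 and 7.98 in the controls and 7.97, 7.11 and 8.05 after gabazine. The dimmest read 5.03, 4.51 and 5.30 in the controls and 5.03, 4.51 and 5.33 after gabazine, so that neither came near the ratio of the third in pair 1. Adra2c had ratios of 0.30, -0.09 and 0.07. Of the beta receptors, which are coupled to Gs, Adrb1 read 7.12, 6.19 and 6.87 in the controls and 8.08, 6.19 and 6.87 after gabazine, and Adrb3, known from adipose tissue, had ratios of 0.00, 0.13 and 0.02.

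The dopamine receptors had the smallest mean differences of the G protein-coupled classes, with a median size of 0.03 over their 8 probe sets, against 0.09 over all probe sets. Drd1, the Gs-coupled receptor of the direct striatal pathway, was read by 2 probe sets. The brighter (1368478_at) was at 8.06, 7.78 and 8.06 in the controls and 8.06, 7.55 and 8.40 after gabazine, and its ratios of 0.00, -0.22 and 0.33 had no common direction. The dimmer (1368479_at) was at 6.30, 6.20 and 6.59 in the controls and 7.30, 6.16 and 6.59 after gabazine, and stood higher in pair 1 alone. Its mean of 0.32 (standard error 0.28), with the smallest unadjusted limma p of the class at 0.346 and an adjusted p of 0.747, became -0.02 without pair 1. Drd2, the Gi-coupled receptor targeted by antipsychotic drugs, had ratios of 0.00, -0.18 and 0.05. Drd3 and the 3 probe sets of Drd4, also coupled to Gi, had means from 0.01 to 0.06, and Drd5, coupled to Gs, had 0.13, -0.11 and -0.08.

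The nicotinic subunits, which assemble as pentameric cation channels, had the largest share of probe sets with a mean near 0. Of their 17 probe sets 16 had a mean within 0.1 of 0, against 54.2% of all probe sets, and their medians were 0.00 in each pair. Ties contributed to both, with identical values for 5, 4 and 13 of the 17 in pairs 1, 2 and 3. None was higher or lower in all 3 pairs, against 6.92% and 9.49% of all probe sets, but a tied probe set could be neither. Chrna7, the subunit of the calcium-permeable homomeric receptor of the hippocampus, read 8.55, 7.56 and 8.60 in the controls and 8.67, 7.59 and 8.60 after gabazine. Chrna4 and Chrnb2, which form the common high-affinity brain receptor, had means of 0.07 and 0.01. All treated values of these 3 subunits were at or above their controls as deposited, by 0.19 at most. Chrna7 and Chrna4 were tied in pair 3 and Chrnb2 in pairs 1 and 3. With arrays set to their medians, Chrnb2 was lower after gabazine in pair 1, at -1.69 against -1.62.

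Chrna3, a subunit of ganglionic receptors, had the smallest unadjusted p of the class, at 5.79, 5.63 and 5.78 in the controls and 5.65, 5.52 and 5.78 after gabazine, with a mean of -0.08 (standard error 0.04), an unadjusted limma p of 0.167 and an adjusted p of 0.747. Chrna5 and Chrnb4, which lie on either side of it in the GRCr8 annotation, differed in pair 1, with ratios of -0.24, 0.00 and 0.00 and of -0.27, 0.00 and 0.03. The adjacent genes Chrna6 and Chrnb3 had means of 0.04 and 0.03, Chrnd and Chrng had 0.01 each, and Htr3a had 0.28 beside Htr3b, whose probe sets had 0.04 and -0.05. The only probe set of the class beyond 0.1 was that of Chrne, a subunit of the adult muscle receptor, with ratios of 0.41, -0.15 and 0.49 and a mean of 0.25 (standard error 0.17). The other muscle-type subunits, Chrna1, Chrnb1, Chrnd and Chrng, had means from -0.02 to 0.01. The 10 markers of skeletal muscle, read beside them, were dim as a list, on average 1.73, 2.01 and 1.91 below the array median in controls 1, 2 and 3. Of these markers 0 were higher or lower in all 3 pairs, where the brightest probe sets of all genes had 7.79% and 10.8%. Chrna2, Chrna6, Chrna9, Chrna10 and Chrnb3 had means from 0.03 to 0.08.

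The largest positive means rested on pair 1. Of the 6 highest, those of Adra2a (1387708_at, 0.38), Htr1a (0.37), Adrb1 (0.32), Drd1 (1368479_at, 0.32) and Htr3a (0.28) had a single ratio near or above 1, that of pair 1, and the other was Chrm3. Without pair 1 the mean of Htr3a became -0.14, and those of Htr1a, Adrb1 and this Adra2a probe set became 0.00. A ratio above 0.5 in pair 1 with both others within 0.1 of 0, a pattern defined after the values were seen, was found for 7 of the 64 probe sets (10.9%), against 3.22% of all. These are the probe sets of Htr1a, Htr1b, Adrb1 and Chrm1 and the dimmer probe sets of Htr2c, Drd1 and Adra2a, with ratios from 0.58 to 1.14 in pair 1, and all 7 were among the 40% dimmest, as were 55 of the 64. Of those 55 they made up 12.7%, where 5.14% of all probe sets as dim had the pattern. The reverse pattern was found for 0 of the 64, against 1.41% of all. For the 3 genes with a brighter probe set, that probe set was at -0.47 (Htr2c), 0.00 (Drd1) and -0.17 (Adra2a) in pair 1.
Values of the whole array moved with pair 1 too. Ratios above 0.5 were seen for 8, 1 and 0 of the 64 in pairs 1, 2 and 3, against 10.3%, 2.89% and 1.56% of all probe sets, and ratios below -0.5 for 1, 1 and 0 of the 64, against 8.19%, 1.65% and 2.42% of all. Above 1 in pair 1 were 3 of the 64 and 4.07% of all. The poly-A controls dap, lys, phe and thr had 8 matches of a 5′ with a 3′ probe set, several of which read the same transcript. Over these, the ratio at the 5′ end minus the ratio at the 3′ end had a median of 1.05, 0.36 and -0.04 in pairs 1, 2 and 3. This difference was 0.50, -0.02 and -0.08 for the 3 rat transcripts of Actb, Gapdh and hexokinase. It was -0.03, -0.12 and -0.01 for the 8 such matches of the hybridization controls and 0.40, 0.04 and -0.01 over all 20 matches. The ratios themselves had a median of 1.12 in pair 1 for the rat transcripts and of -1.70 in pair 2 for the hybridization controls. The part of these array-wide differences in the receptor values was not tested.

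**Figure D5:**
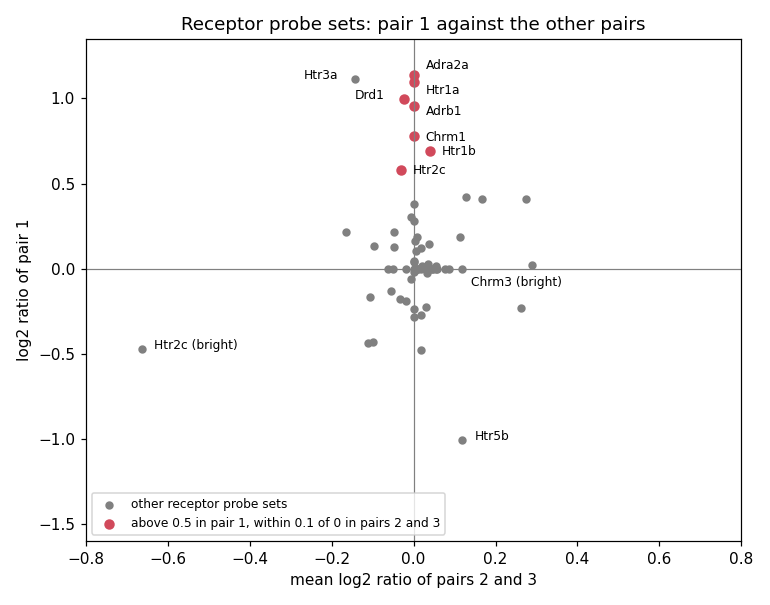
Log2 ratio of pair 1 against the mean log2 ratio of pairs 2 and 3 for the 64 receptor probe sets. The 7 coloured probe sets lie between 0.58 and 1.14 on the vertical axis and close to 0 on the horizontal axis, and the bright Htr2c probe set is the farthest to the left.

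Receptor probe sets were tied more often than the array as a whole. Their 2 arrays held the same value for 17, 27 and 30 of the 64 in pairs 1, 2 and 3 (26.6%, 42.2% and 46.9%), and 50 of the 64 were tied in at least 1 pair (78.1%, against 47.4% of all). Ties were commoner among dim probe sets. Of the 40% dimmest probe sets of the array, 28.9%, 38.8% and 43.1% were tied in pairs 1, 2 and 3, and of the 55 receptor probe sets among them 27.3%, 49.1% and 50.9% were. The bright probe sets of Htr2c, Htr5b, Adra2a and Chrm3 had no tie in any pair.

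Genes that make, carry and break down the transmitters had small median differences as groups, when each was read on its brightest probe set. For such probe sets of all 14218 genes, 7.79% were higher and 10.8% lower in all 3 pairs. Of 17 measured genes of monoamine synthesis, transport and breakdown 2 were higher and 0 lower in all 3 pairs, with a median of 0.05. The 2 were Qdpr, which recycles the biopterin cofactor of the monoamine hydroxylases, with 0.45, 0.18 and 0.35 and a mean of 0.33 (standard error 0.07), and Ddc, the decarboxylase that makes dopamine and serotonin, with 0.34, 0.14 and 0.24 and a mean of 0.24 (standard error 0.06). The lowest was Th, the rate-limiting enzyme of catecholamine synthesis, at -0.20 (standard error 0.09). Of 4 genes of acetylcholine handling 0 moved alike in all pairs. Slc5a7, the choline transporter of cholinergic terminals, read 8.55, 7.78 and 10.39 in the controls and 8.30, 8.46 and 9.81 after gabazine, highest in replica 3 under both conditions, and Slc18a3, the vesicular acetylcholine transporter, had the highest mean of the 4, at 0.13 (standard error 0.11).
Of 28 G proteins, receptor kinases, arrestins and phospholipases 3 were higher and 2 lower in all 3 pairs. Arrb2, an arrestin that uncouples activated receptors, had ratios of 0.34, 0.22 and 0.26 and a mean of 0.27 (standard error 0.04), an unadjusted limma p of 0.00691 and an adjusted p of 0.747. Gnaq, the alpha subunit of Gq, had the highest mean, 0.56 (standard error 0.62), with ratios of 2.03, -0.45 and 0.10, and Gna14, of the same family, had the lowest, -0.33 (standard error 0.15). Of 14 receptor partners and chaperones 3 were higher and 0 lower in all 3 pairs, with Ly6h, a brake on nicotinic receptors, the highest at 0.34 (standard error 0.09) and Tmem35a, the chaperone that assembles Chrna7 receptors, the lowest at -0.17 (standard error 0.11). Limma called 0 genes of these lists at an adjusted p under 0.05. Without adjustment 4 were higher and 0 lower with a limma p under 0.05. The 4 were 2 of 17 for monoamines (Qdpr and Ddc), 1 of 28 (Arrb2) and 1 of 14 (Ly6h), with 0 of 4 for acetylcholine. The brightest probe sets of all genes had 2.37% higher and 2.84% lower. Of the receptor genes themselves, 0 of 48 were higher and 1 of 48 was lower at that p.

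Markers of cell types were read as lists beside the receptors, and 0 of them passed the adjusted threshold in limma. Before adjustment a limma p below 0.05 was reached by 4 that were higher and 1 that was lower. The 4 were 1 of 9 markers of excitatory neurons, 2 of 10 of oligodendrocytes and 1 of 10 of meningeal cells or fibroblasts. The 1 that was lower was of that last list. For the brightest probe sets of all genes the shares higher and lower at that p were 2.37% and 2.84%, and 7.79% were higher and 10.8% lower in all 3 pairs. Higher and lower in all 3 pairs were 1 and 0 of 9 markers of excitatory neurons, 1 and 0 of 9 of GABAergic interneurons, 2 and 1 of 10 of astrocytes, 3 and 0 of 10 of oligodendrocytes, 1 and 2 of 11 of microglia, 1 and 0 of 11 of vascular cells and 1 and 1 of 10 of meningeal cells or fibroblasts. Their medians ran from -0.04 for vascular cells to 0.26 for excitatory neurons and for meningeal cells or fibroblasts. The members with the highest and lowest means were Grin2b (0.47) and Prox1 (-0.18) for excitatory neurons, Gad2 (0.45) and Vip (-0.18) for interneurons, and Gjb6 (0.90) and Aqp4 (-0.26) for astrocytes. They were Mog (0.36) and Mobp (-0.10) for oligodendrocytes, Cx3cr1 (0.26) and P2ry12 (-0.49) for microglia, and Kdr (0.63) and Abcc9 (-0.30) for vascular cells. They were Igf2 (0.66) and Dcn (-0.63) for meningeal cells or fibroblasts, Ttn (0.08) and Actn2 (-0.10) for skeletal muscle, and Ttr (1.60) and Enpp2 (0.01) for choroid plexus. The part of any cell type in the receptor values was not tested.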

How the data were processed

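The 6 arrays held RNA of 3 control and 3 gabazine samples. RMA, in a version not stated in the paper or labels, was used by the authors to make the deposited log2 intensity values, and 0 columns of values were left out. Genes were named from the platform annotation, which gives a single symbol to 20832 probe sets, several to 436 and none to 9831. All 48 receptor gene IDs were found in the RefSeq gene table of build GRCr8 under the same symbol. Probe sets were fitted in R 4.3.3 by limma 3.58.1 with a term for the pair, because the study evaluated every replica against the untreated cultures of the same animals. Deviations from the group mean correlated within pairs (0.794, 0.664 and 0.853). Ties would raise these values too, as would processing of each pair by itself, so they are no test of the pairing. Moderated tests (eBayes) were adjusted by Benjamini-Hochberg across 31099 probe sets. The procedure was run on simulated data with known shifts, the same noise for every probe set and no ties. Since these arrays differ in both respects, that run does not show what the fit can find in them. Of 3 pairs an exact sign-flip test cannot give a p below 0.25. Precision is limited by there being 6 arrays, and standard errors are those of limma.

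The receptors and the lists of genes were chosen with earlier results of these data known, and no list was tested. Values per array were printed for the 6 highest and 6 lowest mean ratios, for genes alike in all pairs on the brightest probe set, for the smallest p of each class, for genes whose probe sets differ by over 0.5 in a pair, and for Htr2c, and for other members as a description. Of the other lists the highest and lowest genes were named, with genes under an unadjusted p of 0.05 and markers chosen after their values were seen. As alternatives the fit was repeated unpaired, with pairs left out in turn and on arrays scaled in 3 other ways. It was also repeated with dim or with tied probe sets removed and with a robust intensity trend. For the brightest probe set of each gene the main fit was read again, without a new fit. A simple version of the methods' joint distribution was computed, without its estimator of bounds.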

Additional observations from a re-analysis of the deposited data

How the results depend on the processing

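Across all alternatives that refit limma, 0 receptor probe sets passed the adjusted threshold, and among the 20 probe sets named by the rule the smallest adjusted p was 0.679. Without the replicate block (no pairing) limma called 14 probe sets of the whole table higher and 0 lower, with 0 receptors among them. The simple share that stands in for the methods' joint distribution put 1 receptor probe set (Chrm3, 1369112_at) at 0.005 or less in the higher direction, against 5.42% of all probe sets, and 2 (the bright probe set of Htr2c, and Htr5b) in the lower direction, against 7.28%.

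The number higher in every remaining pair ran from 6 to 11 when 1 pair was left out, and the number lower from 4 to 7, since 2 pairs are easier to satisfy than 3. With all pairs it was 14 higher with arrays centred on their medians, 15 after cyclic loess and 5 after quantile normalization, and 5 lower after quantile normalization. The median over the receptors, 0.028, was 0.0044 to 0.020 with 1 pair left out, 0.014 with centred arrays, 0.0061 after quantile normalization, 0.011 after cyclic loess, 0.036 without the dimmest probe sets (9 receptors left), 0.076 without tied ones (14 left) and 0.032 on brightest probe sets.

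Of the named probe sets, 1 of Adra2b (1380171_at) turned to -0.0031 with centred arrays and -0.0043 after cyclic loess. With 1 pair left out at a time, the mean ran from -0.24 to 0.019 for Adra2b (1396853_at), from -0.023 to 0.50 for Drd1 (1368479_at), from -0.031 to 0.29 for Htr2c (1369860_a_at), from -0.14 to 0.56 for Htr3a and from -0.60 to 0.12 for Htr5b, in each case with the sign turned without pair 1. It ran from -0.11 to 0.17 for Drd1 (1368478_at), with the sign turned without pair 3. The signal of a dim probe set over background is not known here.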
